A study of Arabidopsis thaliana with 9 samples.

Results

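Transcript levels of 4 Arabidopsis thaliana genes of cell wall loosening were followed: the alpha-expansins EXPA4 (AT2G39700) and EXPA8 (AT2G40610), the expansin-like gene EXLA1 (AT3G45970) and XTH18 (AT4G30280), which encodes a xyloglucan endotransglucosylase/hydrolase. They were taken by gene name, and each is measured by 1 probe set of the 22746 that are not controls. RNA came from inflorescences freed of flowers past stage 12 and sampled at 4 h, with 3 Affymetrix arrays in each of 3 groups. RGA-GR Dex were ga1-3 rga rgl2 plants that carry a fusion of RGA with the glucocorticoid receptor (RGA-GR), given dexamethasone (Dex). RGA-GR mock were plants of the same transgenic genotype given a mock treatment. Nontransgenic Dex were ga1-3 rga rgl2 plants without the fusion, given Dex. The 3 groups thus share the ga1-3, rga and rgl2 mutations. The promoter of the fusion, the number of transgenic lines, the number of plants behind an array and their age are not given in the sources used here. The replicates are described as independent.

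Expansins are wall proteins that loosen the contacts between cellulose microfibrils and the matrix without cutting a polymer. Enzymes of the XTH family cut xyloglucan, the tether between microfibrils, and rejoin the cut end to another chain, and some members hydrolyse it. Both families let walls yield as cells elongate, in stems, stamen filaments and petals among other organs. Gibberellin promotes such growth by having DELLA proteins degraded, and RGA and RGL2 are DELLA proteins that repress it. The ga1-3 mutation blocks gibberellin synthesis, so DELLA proteins accumulate. In an RGA-GR fusion, Dex lets the protein enter the nucleus.

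A deposited value is a linear ratio, usually to that probe set's median across all 9 arrays. Levels of different genes therefore cannot be compared, and the number of arrays limits the precision. The ratio cannot show whether a marker of the inflorescence is present or absent, so the labelled tissue was not checked, and RGA and RGL2 were not analysed here. All 4 genes have a median ratio of 1, and all 4 were among the 17273 probe sets kept by the filter on low values. On 4 arrays, RGA-GR Dex 1 and 2 and RGA-GR mock 1 and 2, the 24 probe sets for poly-A spike-in RNA had a mean log2 ratio of -3.74 to -2.96, against -0.31 to 1.20 on the other 5, which include every nontransgenic array. Spike-in signal therefore goes partly with the group. For the 4 genes, values with it as a block are given beside the differences from nontransgenic Dex. In the transgenic groups only array 3 carries the signal. The values with the block therefore set the transgenic level against nontransgenic Dex by array 3 of both groups. Deviations from the group means correlated weakly between equally numbered Dex and mock arrays of the transgenic line (r = 0.332, 0.118 and 0.325). These arrays are called pairs. Pair 3 is also the one with spike-in signal. Differences are between group means of log2 ratios, with the moderated SE from limma over n = 3 arrays per group, and the 95% interval where 1 is given. The adjusted p is limma's with Benjamini-Hochberg over the 17273 probe sets, and the p-values measure only the spread between these arrays.

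The comparison of RGA-GR Dex with RGA-GR mock was designed for the response to RGA activity, but without nontransgenic mock plants it cannot tell that response and one to Dex itself apart. In it, EXPA8 had 5.54-fold lower and EXPA4 1.33-fold lower mean levels after Dex, EXLA1 was 1.20-fold lower and XTH18 2.36-fold higher. None of the 4 passed an adjusted p of 0.05 in limma, as was the case for 0 of 17273 probe sets (0%). EXPA8 was among the 1525 probe sets (8.83%) with an unadjusted p under 0.05. The RGA-GR Dex and RGA-GR mock arrays overlapped for each of the 4 genes, where 11.5% of all probe sets had groups that did not overlap. Against nontransgenic Dex, none of the 4 passed either, where 27.0% of all probe sets did in RGA-GR Dex and 15.3% in RGA-GR mock. The RGA-GR mock and nontransgenic Dex arrays overlapped for each of the 4 as well, where 23.3% of all probe sets had every RGA-GR mock array above and 16.6% every one below. The comparisons share arrays, so their values are set side by side for each gene.

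EXPA8 spread the most within RGA-GR Dex. Its ratios were 1.38, 0.121 and 0.0751 in RGA-GR Dex arrays 1, 2 and 3, against 1.61, 1 and 1.33 in RGA-GR mock and 0.699, 1.01 and 0.892 in nontransgenic Dex. RGA-GR Dex arrays 2 and 3 lay below all 6 arrays of the other groups, while RGA-GR Dex array 1 lay among the mock values, an 18.4-fold range within the group. The mean log2 ratio was -2.11 ± 2.25 in RGA-GR Dex, 0.37 ± 0.34 in RGA-GR mock and -0.22 ± 0.27 in nontransgenic Dex (SD, n = 3 each). RGA-GR Dex was thus lowest, nontransgenic Dex next and RGA-GR mock highest. The step between nontransgenic Dex and RGA-GR Dex was smaller than the SD of RGA-GR Dex, and the RGA-GR mock and nontransgenic Dex arrays overlapped.

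The EXPA8 difference between RGA-GR Dex and RGA-GR mock was -2.47 ± 0.92 on the log2 scale, with an interval of -4.51 to -0.43, an unadjusted p of 0.0224 and an adjusted p of 0.535 in limma. The gene was lower after Dex in 3 of 3 pairs, by differences of -0.22, -3.05 and -4.15. Within the arrays without spike-in signal the difference was -1.63, and in the single pair with it -4.15. Against nontransgenic Dex, the RGA-GR Dex difference was -1.88 ± 0.92, with an interval of -3.92 to 0.16 and an adjusted p of 0.153 in limma. One array decides this result: without RGA-GR Dex array 1 the difference was -3.17 with an adjusted p of 0.0052, and the Dex to mock difference was -3.76 with an adjusted p of 0.052. With spike-in signal as a block, RGA-GR Dex differed from nontransgenic Dex by -2.67 (limma adjusted p = 0.108). RGA-GR mock minus nontransgenic Dex was 0.59 ± 0.92 (limma adjusted p = 0.690), and -0.20 with that block.

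EXPA4, an alpha-expansin that acts in pollen tube growth, varied by pair more than by treatment. Its ratios were 1.64, 0.568 and 0.540 in RGA-GR Dex arrays 1, 2 and 3, against 1.86, 0.755 and 0.832 in RGA-GR mock and 1.40, 1.25 and 1 in nontransgenic Dex. Array 1 of both transgenic groups lay above every nontransgenic array, and arrays 2 and 3 of both lay below every one, so that all groups overlapped. The mean log2 ratio was -0.33 ± 0.90 in RGA-GR Dex, 0.08 ± 0.71 in RGA-GR mock and 0.27 ± 0.25 in nontransgenic Dex (SD, n = 3 each). That order runs from RGA-GR Dex up to nontransgenic Dex, and each step was smaller than the SD of a group on either side of it.

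The EXPA4 difference between RGA-GR Dex and RGA-GR mock was -0.41 ± 0.45, with an interval of -1.40 to 0.58 and an adjusted p of 0.803 in limma. Within the pairs it was -0.19, -0.41 and -0.62, lower after Dex in 3 of 3. Against nontransgenic Dex, RGA-GR Dex differed by -0.60 ± 0.45, with an interval of -1.59 to 0.39 and an adjusted p of 0.337 in limma. With the replicate block within the transgenic line, that same difference had an adjusted p of 0.0263 in limma. With the block over all 9 arrays that p was 0.116. The block within the line takes the spread between pairs out of the error. The nontransgenic arrays are not in the pairs, so against them that spread is part of the variation between replicates. The p-values with this block leave it out, here and for the genes below. With spike-in signal as a block the difference was -1.05 (limma adjusted p = 0.168). Without pair 1 it was -1.12, with an adjusted p of 0.0160. RGA-GR mock minus nontransgenic Dex was -0.20 ± 0.45 (limma adjusted p = 0.789), and -0.64 with spike-in signal as a block.

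EXLA1, an expansin-like gene whose protein has no established loosening activity, had the smallest differences of the 4 genes. Its ratios were 0.6, 1.07 and 0.951 in RGA-GR Dex arrays 1, 2 and 3, against 0.723, 1.098 and 1.32 in RGA-GR mock and 1, 1.18 and 0.655 in nontransgenic Dex. All groups overlapped, and array 1 was the lowest of its group in both transgenic groups. The mean log2 ratio was -0.24 ± 0.44 in RGA-GR Dex, 0.02 ± 0.45 in RGA-GR mock and -0.12 ± 0.44 in nontransgenic Dex (SD, n = 3 each), so that no step in the order of the groups exceeded the SD of any group.

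RGA-GR Dex differed from RGA-GR mock by -0.26 ± 0.33 for EXLA1, with an interval of -0.99 to 0.46 and an adjusted p of 0.829 in limma. The pairs gave -0.27, -0.04 and -0.48. The interval allows a mean level in RGA-GR Dex up to 0.46 above and 0.99 below that in RGA-GR mock on the log2 scale. Against nontransgenic Dex, RGA-GR Dex differed by -0.11 ± 0.33 (limma adjusted p = 0.821), which became 0.16 with spike-in signal as a block, and RGA-GR mock by 0.15 ± 0.33 (limma adjusted p = 0.784), which became 0.42.

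XTH18, known from roots, where it acts in epidermal cell elongation, had 1 array far below the others. Its ratios were 1, 1.08 and 1.75 in RGA-GR Dex arrays 1, 2 and 3, against 0.0776, 1.55 and 1.19 in RGA-GR mock and 0.939, 0.567 and 0.709 in nontransgenic Dex. RGA-GR mock array 1 was the lowest of the 9, and RGA-GR mock arrays 2 and 3 lay within the range of RGA-GR Dex. The mean log2 ratio was 0.31 ± 0.44 in RGA-GR Dex, -0.93 ± 2.39 in RGA-GR mock and -0.47 ± 0.36 in nontransgenic Dex (SD, n = 3 each). The order of the means ran from RGA-GR mock through nontransgenic Dex to RGA-GR Dex. The step between RGA-GR mock and nontransgenic Dex was smaller than the SD of RGA-GR mock, and that between nontransgenic Dex and RGA-GR Dex was larger than both of their SDs.

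Every RGA-GR Dex array of XTH18 lay above every nontransgenic array, as was the case for 28.6% of all probe sets in this comparison, and for no other of the 4 genes did these groups not overlap (46.2% of all probe sets in either direction). The difference was 0.77 ± 0.92, with an interval of -1.27 to 2.82 and an adjusted p of 0.561 in limma. The SE carries the spread of RGA-GR mock, since it is pooled over the 9 arrays, and without pair 1 the difference was 0.93 with an adjusted p of 0.0489. With spike-in signal as a block it was 1.62 (limma adjusted p = 0.314). Against RGA-GR mock, RGA-GR Dex differed by 1.24 ± 0.92, with an interval of -0.81 to 3.29 and an adjusted p of 0.710 in limma. The pairs gave 3.69, -0.52 and 0.56, so that pair 1 held most of the difference, and without RGA-GR mock array 1 it was -0.14. RGA-GR mock minus nontransgenic Dex was -0.47 ± 0.92 (limma adjusted p = 0.757) and became 0.91 without that array and 0.38 with spike-in signal as a block.

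**Figure D1:**
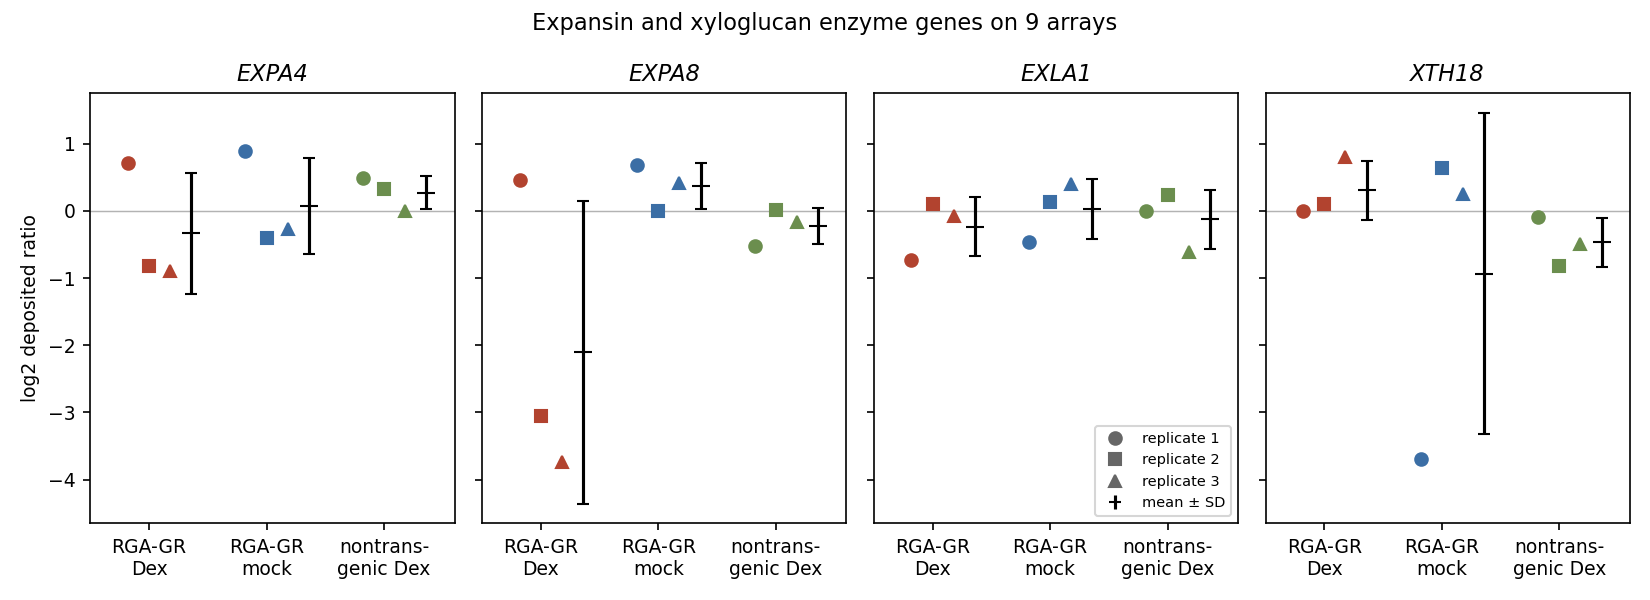
Log2 of the deposited ratio of EXPA4, EXPA8, EXLA1 and XTH18 on each of the 9 arrays (points), with the mean ± SD of each group of 3 (bars). RGA-GR Dex arrays 2 and 3 stand below the other arrays for EXPA8, and RGA-GR mock array 1 stands below them for XTH18.

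The spread between arrays of 1 group differed among the genes. The SD within groups, pooled over the 3 groups, was 1.42 for XTH18 and 1.33 for EXPA8 on the log2 scale, 0.68 for EXPA4 and 0.44 for EXLA1, against a median of 0.33 over all probe sets kept. XTH18 and EXPA8 were thus at the 96.3 and 95.1 percentile of the within-group spread, EXPA4 at the 83.2 and EXLA1 at the 68.0. Both EXPA8 and XTH18 owe their spread to 1 or 2 arrays of a single group, and those arrays are of different groups.

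**Figure D2:**
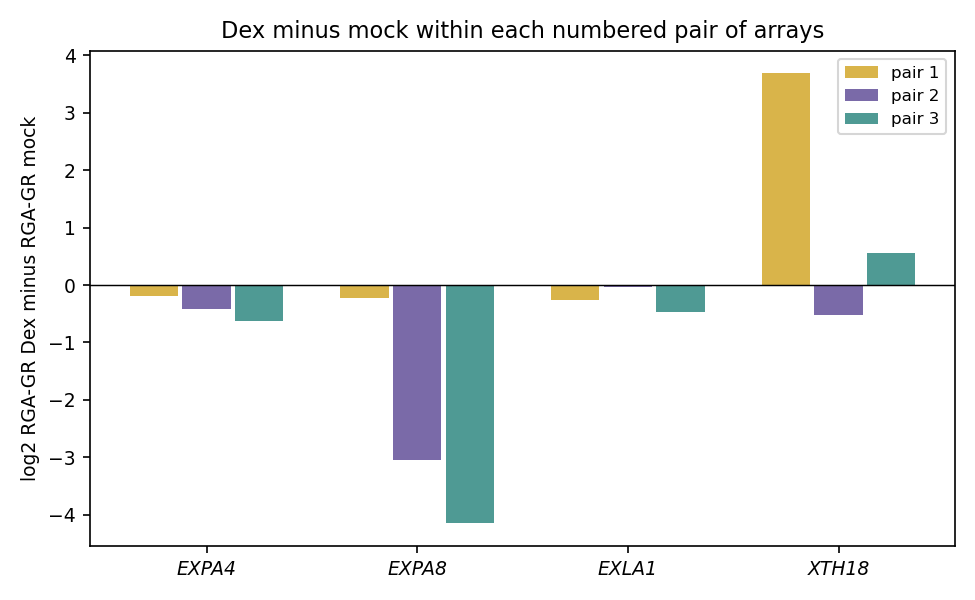
Log2 difference of RGA-GR Dex minus RGA-GR mock within each pair of arrays of the same number, for the 4 genes. EXPA4, EXPA8 and EXLA1 lie below 0 in all 3 pairs, while XTH18 lies at 3.69 in pair 1 and at -0.52 and 0.56 in the other 2.

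The 3 expansin and expansin-like genes were lower after Dex in 3 of 3 pairs each, and XTH18 in 1 of 3. Over all probe sets kept, 13.9% were lower after Dex in 3 of 3 pairs, and 40.9% had a lower mean. The pair with the largest difference was pair 3 for the 3 expansin genes and pair 1 for XTH18.

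The values of all measured genes of both families follow, and their counts and medians include the 4 genes. Of the 35 listed expansin loci, 18 have a probe set that the platform's probe table pairs with that gene alone. Of these 18, 13 passed the filter, EXPA4, EXPA8 and EXLA1 included. Of 33 listed XTH loci 10 have such a probe set, of which 4 passed, XTH18 included. No gene is named for 8730 probe sets and several are for 503, so whether the array measures the other loci is not known. Of the 13 measured expansins, 10 had lower means in RGA-GR Dex than in RGA-GR mock, where 40.9% of all probe sets did. EXPA4, EXPA8 and EXLA1 are among these 10. The median difference was -0.76 on the log2 scale, against 0.08 over all probe sets. None of the 13 passed the test in limma. An unadjusted p under 0.05 was reached by 3, EXPA8 among them, and by 8.83% of all probe sets. By pair, 10, 10 and 11 of the 13 were lower after Dex, with medians of -0.19, -0.76 and -0.68. The median over all probe sets was 0.04, 0.10 and 0.09 in the same pairs, and the share of them lower in each single pair was not counted.

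EXPB5, a beta-expansin that acts with EXPA4 in pollen tube growth, was the only 1 of the 13 with all RGA-GR Dex arrays below all RGA-GR mock arrays, as was the case for 4.23% of all probe sets. Its ratios were 0.760, 0.056 and 0.585 in RGA-GR Dex, against 1.66, 1 and 0.839 in RGA-GR mock and 1.90, 1.34 and 1.11 in nontransgenic Dex. RGA-GR Dex array 2 was far below the other 8. The difference from RGA-GR mock was -1.93 ± 0.82 (limma adjusted p = 0.549), and that from nontransgenic Dex was -2.27 ± 0.82 (limma adjusted p = 0.0645). The difference from nontransgenic Dex passed with the replicate block within the transgenic line (limma adjusted p = 0.0263) and over all 9 arrays (0.0411). It also passed with an offset before log2 (0.0431), without pair 1 (0.0394) and without RGA-GR Dex array 1 (0.0287). With spike-in signal as a block it did not pass. The alpha-expansin EXPA9 was, like EXPA8, highest on array 1 within RGA-GR Dex, with ratios of 1.34, 0.559 and 0.182, and had a difference of -1.15 ± 0.60 from RGA-GR mock, which did not pass (limma adjusted p = 0.611). EXLB1, an expansin-like gene, differed by -2.08 ± 1.16 and did not pass either (limma adjusted p = 0.632).

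In RGA-GR Dex against nontransgenic Dex, 12 of the 13 expansins had lower means, EXLA2 being the exception, where 42.7% of all probe sets did. EXPA4, EXPA8 and EXLA1 are among these 12. The median difference was -0.98, against 0.14 over all probe sets. An unadjusted p under 0.05 was reached by 5 of the 13, and by 40.4% of all probe sets. Of the 13, 2 fell past an adjusted p of 0.05 in limma, EXPA15 and EXPB1, and 0 rose, where 9.44% of all probe sets fell and 17.5% rose. In 3 of the 13, EXPA15, EXPB1 and EXPB5, every RGA-GR Dex array lay below every nontransgenic array, as in 17.6% of all probe sets.

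EXPA15, an alpha-expansin of the shoot meristem, had ratios of 1, 0.539 and 0.389 in RGA-GR Dex, against 1.06, 0.913 and 0.867 in RGA-GR mock and 1.61, 1.5 and 1.73 in nontransgenic Dex. All 6 arrays of the transgenic line lay below the nontransgenic ones. RGA-GR Dex was 2.71-fold lower than nontransgenic Dex, a difference of -1.44 ± 0.30 with an adjusted p of 0.0094 in limma. Without pair 2 that adjusted p was 0.0616. RGA-GR mock differed from nontransgenic Dex by -0.77 ± 0.30, which did not pass (limma adjusted p = 0.104). It passed with the replicate block within the transgenic line (0.0309), with these 6 arrays alone (0.0324) and without pair 1 (0.0418).

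EXPB1, a beta-expansin, had ratios of 0.538, 0.185 and 0.216 in RGA-GR Dex, against 0.391, 0.861 and 0.531 in RGA-GR mock and 1.12, 1.29 and 1.03 in nontransgenic Dex. Again every array of the transgenic line lay below every nontransgenic array. Over all probe sets, that held for the RGA-GR Dex arrays in 17.6% and for the RGA-GR mock arrays in 16.6%. RGA-GR Dex was 4.11-fold lower than nontransgenic Dex, a difference of -2.04 ± 0.62 with an adjusted p of 0.0354 in limma, which passed 0.05 under 11 of 21 alternatives. The probe set of EXPB1 is among 4 of the 13, with EXLB1, EXPA16 and EXPA24, whose median ratio is under 1, so that what its values were divided by is not known.

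How many expansins fell in RGA-GR Dex against nontransgenic Dex depended on single arrays, and the share of all probe sets that fell is given beside each count. The count was 7 of 13 without RGA-GR Dex array 1 (10.3% of all probe sets), when EXPA8, EXPA9, EXPA20, EXPB3 and EXPB5 joined EXPA15 and EXPB1 and EXLA2 rose. It was 8 without pair 1 (10.8%), when EXPA4 fell as well, and 0 without pair 2 (3.53%). With the replicate block within the transgenic line it was 6 (14.0%), EXPA4 among them but not EXPA8. With spike-in signal as a block it was 2 (7.90%), EXPA15 and EXPA20. EXPA15 alone fell without any 1 of RGA-GR Dex arrays 2 and 3 or of the nontransgenic arrays.

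In RGA-GR mock against nontransgenic Dex, where the transgenic line had no Dex, 6 of the 13 expansins had higher and 7 lower means, with a median of -0.11 against 0.07 over all probe sets. Over all probe sets 45.6% had lower means. In 3 of the 13, EXPA15, EXPA20 and EXPB1, every RGA-GR mock array lay below every nontransgenic array, as in 16.6% of all probe sets. EXPA20, an alpha-expansin, alone fell past the threshold, where 6.19% of all probe sets did, with a difference of -0.61 ± 0.18 (limma adjusted p = 0.0485). That call was lost under 14 of 21 alternatives, and with the replicate block within the transgenic line EXPA15 fell too. In RGA-GR Dex, EXPA20 differed from nontransgenic Dex by -0.43 ± 0.18 and did not pass (limma adjusted p = 0.106), except with that block (0.0384) and 4 other alternatives.

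**Figure D3:**
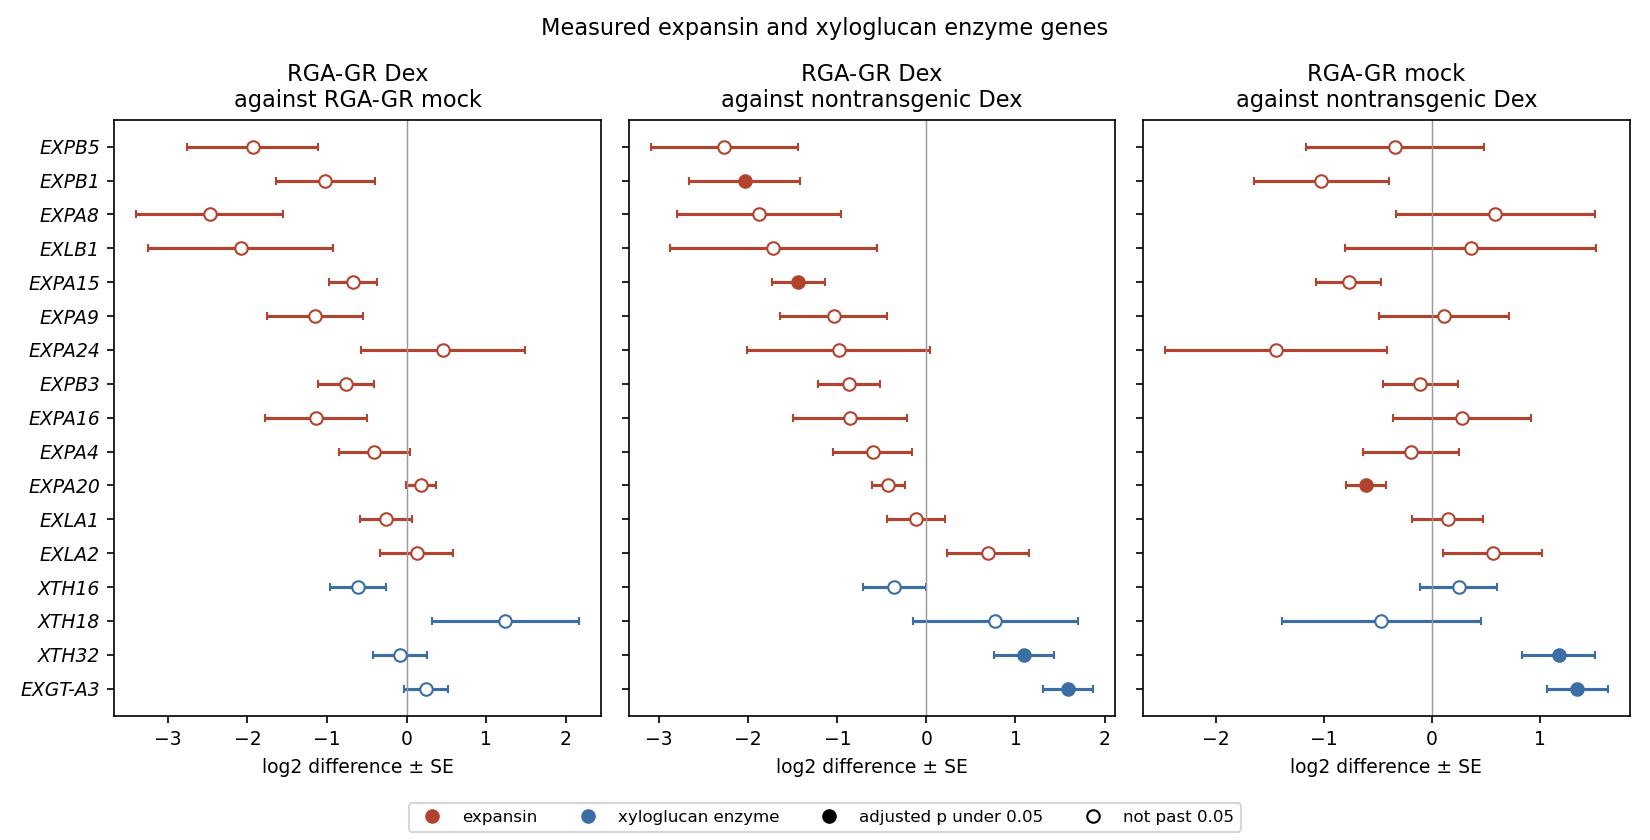
Log2 differences ± SE of the 13 expansins and 4 xyloglucan enzyme genes that passed the filter, in the 3 comparisons, with filled points for an adjusted p under 0.05 in limma. EXPA15 and EXPB1 lie lower, and EXGT-A3 and XTH32 higher, in RGA-GR Dex relative to nontransgenic Dex.

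Among the xyloglucan enzyme genes, EXGT-A3 and XTH32 had higher levels in both transgenic groups than in nontransgenic Dex. Of the 4 measured, XTH18, XTH16, XTH32 and EXGT-A3, the last of which is XTH27, 2 had higher and 2 lower means in RGA-GR Dex than in RGA-GR mock, with a median of 0.08 and 0 past the threshold in limma. Over all probe sets 59.1% had higher means, and 7.28% had all RGA-GR Dex arrays above all RGA-GR mock arrays, as 0 of the 4 did. Relative to nontransgenic Dex, 3 of the 4 had higher means in RGA-GR Dex, where 57.3% of all probe sets did, and 3 in RGA-GR mock, where 54.4% did. Against nontransgenic Dex, EXGT-A3 and XTH32 rose in RGA-GR Dex, where 17.5% of all probe sets did, and the same 2 rose in RGA-GR mock, where 9.07% did.

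EXGT-A3, which acts in leaf vein development, had ratios of 1, 1.72 and 2.005 in RGA-GR Dex, against 0.983, 1.24 and 1.70 in RGA-GR mock and 0.495, 0.488 and 0.520 in nontransgenic Dex. Every array of the transgenic line was above every nontransgenic array. Over all probe sets, that held for the RGA-GR Dex arrays in 28.6% and for the RGA-GR mock arrays in 23.3%. Relative to nontransgenic Dex, the gene was 3.02-fold higher in RGA-GR Dex (1.59 ± 0.28, limma adjusted p = 0.0058) and 2.55-fold higher in RGA-GR mock (1.35 ± 0.28, limma adjusted p = 0.0198). Between RGA-GR Dex and RGA-GR mock it differed by 0.24 ± 0.28 (limma adjusted p = 0.811). Without pair 2 the adjusted p was 0.0528 for RGA-GR Dex and 0.0984 for RGA-GR mock.

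XTH32, of the branch of the family that is predicted to hydrolyse xyloglucan, had ratios of 1, 1.17 and 1.06 in RGA-GR Dex, against 1.86, 0.758 and 1.04 in RGA-GR mock and 0.583, 0.433 and 0.503 in nontransgenic Dex. Here too the transgenic arrays were above the nontransgenic ones without overlap, as were the RGA-GR mock arrays in 23.3% of all probe sets. The differences from nontransgenic Dex were 1.09 ± 0.34 in RGA-GR Dex and 1.18 ± 0.34 in RGA-GR mock, with adjusted p of 0.0360 and 0.0421 in limma. These calls were lost under 12 and 14 of 21 alternatives, the block on spike-in signal among them, with adjusted p of 0.106 and 0.117. XTH16 did not pass, with -0.61 ± 0.35 in RGA-GR Dex against RGA-GR mock and -0.36 ± 0.35 in RGA-GR Dex against nontransgenic Dex.

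The 11 named genes that the filter left out carry low ratios. They are the expansins EXPA7, EXPA18, EXPA21, EXLA3 and EXPB2, with ratios of 0.0367 to 0.824, and XTH19, XTH20, XTH21, XTH26, XTH29 and XTH33, with ratios of 0.0337 to 1.28. All 11 have a median ratio under 1 and were not tested. EXPA7 and EXPA18 are alpha-expansins of root hairs. In the gene order of the TAIR10.1 annotation, EXLA1 lies next to EXLA3, and XTH18 lies between XTH24 and XTH19, so that related copies neighbour 2 of the 4 genes. The name tables pair the probe sets of EXLA1 and XTH18 with these genes alone, but cross-hybridisation between close copies was not tested.

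Pollen markers were low on RGA-GR Dex arrays 2 and 3, on which EXPA4 and EXPA8 were low too. Of a list of 29 pollen markers, 9 have a probe set of their own, and 7 of these passed the filter on low values. The median log2 ratio of the 7 was 0.00, -3.25 and -1.63 in RGA-GR Dex arrays 1, 2 and 3. It was 0.42, -0.89 and -1.23 in RGA-GR mock and 1.14, 1.30 and 1.06 in nontransgenic Dex. The nontransgenic arrays were highest, and array 1 was the highest of each transgenic group. In RGA-GR Dex, 5 of 7 fell against nontransgenic Dex with a median difference of -3.71, where 9.44% of all probe sets fell, and in RGA-GR mock 3 of 7 did with a median of -2.15, where 6.19% did. Between RGA-GR Dex and RGA-GR mock 0 of 7 passed, with a median of -1.43. EXPA4 and EXPA8 were highest on array 1 of each transgenic group as well. As a description over the 9 arrays, which share groups and pairs, the markers' median correlated with EXPA4 at Pearson r = 0.78. For EXPA8 it was 0.66, for EXLA1 -0.35 and for XTH18 -0.42. Spearman's rank correlation was 0.70, 0.33, -0.12 and -0.77 for the genes in the same order. On RGA-GR mock array 3 the markers' median was -1.23, while EXPA8 had a ratio of 1.33. Of 28 tapetum markers 9 were measured, with array medians between -0.12 and 0.30. Their median difference was -0.08 in RGA-GR Dex against RGA-GR mock, where 0 of 9 passed. In RGA-GR Dex against nontransgenic Dex it was -0.22, where 1 rose and 2 fell (17.5% and 9.44% of all probe sets), with differences from -2.01 to 1.77. In RGA-GR mock against nontransgenic Dex it was -0.07, where 1 rose and 1 fell (9.07% and 6.19%), with differences from -1.93 to 1.75. In whole inflorescences, fewer cells of a type and less RNA per cell cannot be told apart. The part of these cell types in the expansin values was not tested.

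**Figure D4:**
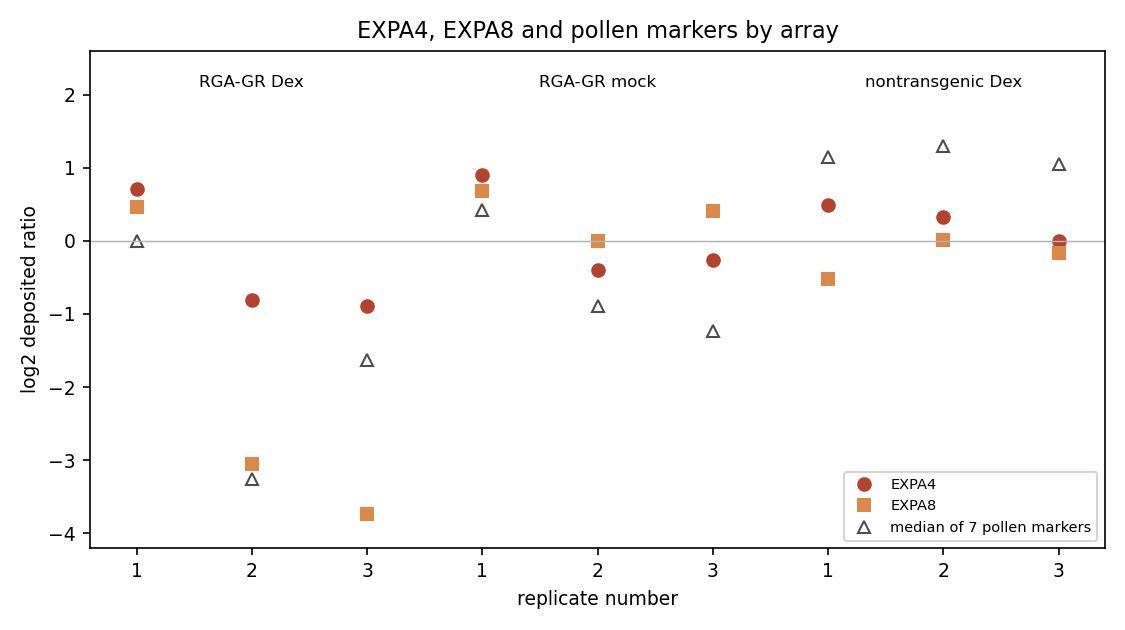
Log2 of the deposited ratio of EXPA4 and EXPA8 on each array, with the median of 7 pollen markers. The markers, EXPA4 and EXPA8 are all lower on arrays 2 and 3 than on array 1 in both transgenic groups.

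With the 13 expansins and 4 xyloglucan enzymes, 37 genes of the wall families searched by name passed the filter. Of the rest, 8 are cellulose synthase and cellulose synthase-like genes, 9 endoglucanases of family 9 and 3 pectin methylesterases or their inhibitors. Before the filter these 3 families had 8, 15 and 4 genes in the same order. The searches for polygalacturonases, pectate lyases, extensins and arabinogalactan proteins found 0 genes, so the 37 leave these families out. In RGA-GR Dex against RGA-GR mock 0 of 37 passed, with a median of -0.26. In RGA-GR Dex against nontransgenic Dex 5 rose and 5 fell, with a median of -0.54, where 17.5% of all probe sets rose and 9.44% fell. In RGA-GR mock against nontransgenic Dex 5 rose and 4 fell, with a median of 0.01, where 9.07% rose and 6.19% fell. The largest fall among those past 0.05 was that of CSLA01, of the mannan synthase family, with a difference of -3.24 ± 0.45 in RGA-GR Dex (limma adjusted p = 0.0039) and -2.95 ± 0.45 in RGA-GR mock (limma adjusted p = 0.0129). In the same comparisons the endoglucanase gene GH9B13 fell, with differences of -2.11 ± 0.35 and -2.36 ± 0.35. CSLA03, of the mannan synthase family too, rose by 1.45 ± 0.35 and 1.43 ± 0.35, and the adjusted p of these 2 genes lay between 0.0049 and 0.0279 in limma. The calls of CSLA03 were lost under 4 of 21 alternatives in RGA-GR Dex and 8 in RGA-GR mock, and those of CSLA01 and GH9B13 under 0 in RGA-GR Dex and under 3 and 2 in RGA-GR mock. For these 3 genes, as for EXGT-A3, both transgenic groups were on 1 side of nontransgenic Dex. Over all probe sets, every RGA-GR Dex array lay above every nontransgenic array in 28.6% and below in 17.6%. For RGA-GR mock these shares were 23.3% and 16.6%. The share with both groups on the same side was not counted.

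Genes with the most similar course over the 9 arrays were picked by Pearson correlation of log2 ratios among 9611 named probe sets outside the lists. The arrays share pairs, groups and spike-in signal, so these values are a description. For EXPA4 they were AT1G65500, AT5G19760 and AT1G25230, each with r = 0.93. For EXPA8 they were AT1G31430 and AT5G48210 with r = 0.97 each and AT3G19500 with 0.94. For EXLA1 they were AT5G55550 with r = 0.92, AT5G47460 with 0.91 and the transcription factor gene ORA47 with 0.89. For XTH18, AT1G35513 had r = 0.98, AT4G08230 had 0.97 and AT1G03390 had 0.95. Profiles with a single low array or a pair of low arrays, as those of XTH18 and EXPA8, give high correlations with any gene that is low on the same arrays. An r over 0.9 was reached by 13 genes for EXPA4, 21 for EXPA8, 2 for EXLA1 and 16 for XTH18.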

How the data were processed

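Per the labels' protocols, an RNeasy Plant Mini Kit gave the RNA for the Affymetrix arrays, and the submitters' processing notes name GCOS. The deposited values are linear ratios, which the authors set, for 15112 of 22810 probe sets, to a median of exactly 1, as read from the values. The other 7698 have a median under 1, with no stated divisor. No scaling step is stated.

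The log2 ratio was used without an offset. The 64 control probe sets were left out, and a probe set was kept if 3 or more of its 9 values exceeded the 40th percentile of their arrays. Groups came from sample titles. limma 3.58.1 in R 4.3.3 fitted all 9 arrays together (lmFit, eBayes with trend, two-sided, Benjamini-Hochberg), with 6 residual degrees of freedom, after the script was tested on simulated data. No exact permutation test was run, since with 3 arrays a group its p is at least 0.1. Gene names came from the platform's probe table and TAIR10.1. Named genes were the 4 genes, both family lists, the 3 most correlated genes of each, and the 2 highest and 2 lowest wall family genes past 0.05 per comparison. The members and lists were chosen with earlier results of these data known.

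Deviations from the group means correlated between equally numbered Dex and mock arrays (r = 0.332, 0.118 and 0.325). These arrays were called pairs on that basis, the labels being silent on it. Nontransgenic numbers did not pair with them. The fit had no block. Alternatives were other normalizations, offset, filters, eBayes settings, replicate blocks, the spike-in split, and left-out arrays and pairs. matplotlib 3.10.9 (Python 3.11.15) drew the figures.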

Additional observations from a re-analysis of the deposited data

How the results depend on the processing

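The comparison of RGA-GR Dex with RGA-GR mock had 22 alternatives and each other comparison 21. None took any of the 4 genes past 0.05 in limma in that comparison, nor in RGA-GR mock against nontransgenic Dex. Where a value below moves, the cause was not tested. Fits that leave 1 array in a group take its spread from the other groups. The arrays with spike-in signal alone leave 1 array in each transgenic group, so only differences are given for them.

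Between RGA-GR Dex and RGA-GR mock, limma called 0 probe sets, 1 with eBayes without trend, 50 in the arrays with spike-in signal alone, 2 without pair 1, and 0 to 15 with each array left out, 15 without RGA-GR Dex array 1. With each array left out, the EXPA4 difference ran between -0.93 and 0.0035 and that of XTH18 between -0.14 and 2.03.

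Between RGA-GR Dex and nontransgenic Dex the 4660 calls became 2906 with quantile normalization, 1134 without pair 2 and 1874 to 4724 with each array left out, 1874 without RGA-GR Dex array 2. With array medians subtracted, 1751 were higher and 2253 lower, against 3029 and 1631, and the median difference of all probe sets moved to -0.05 from 0.14. In the arrays with spike-in signal alone, the differences were -1.16 for EXPA4, -3.51 for EXPA8, 0.051 for EXLA1 and 1.28 for XTH18. Without pair 1 they were -1.12 (limma adjusted p = 0.0160), -3.17 (0.0097), 0.14 and 0.93 (0.0489). The replicate block within the transgenic line left the EXPA4 difference at -0.60 with an adjusted p of 0.0263, and changed no other call of the 4 genes. That p leaves out the spread between the pairs. With spike-in signal as a block EXLA1 was 0.16. With each array left out, EXPA8 ran between -3.17 and -1.07, past 0.05 without RGA-GR Dex array 1 alone, and EXLA1 between -0.36 and 0.14.

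For RGA-GR mock against nontransgenic Dex the 2635 calls became 1123 with quantile normalization, 4927 with the replicate block within the transgenic line, 1412 with spike-in signal as a block, 1029 in the arrays with that signal, 0 without pair 2 (4347 at an unadjusted p under 0.05) and 0 to 2289 with each array left out, 0 without RGA-GR mock array 2 (4341 unadjusted). With array medians subtracted, 839 were higher and 1412 lower, against 1566 and 1069, and the median of all probe sets was -0.07 in place of 0.07. EXPA4 was 0.045 without pair 2 and ran between -0.61 and 0.045 with each array left out. EXPA8 was -0.20 with spike-in signal as a block. EXLA1 was -0.043 without pair 3 and between -0.10 and 0.39 with each array left out. XTH18 was 0.38 with spike-in signal as a block, 0.72 in the arrays with that signal, 0.91 without pair 1, and between -1.25 and 0.91 with each array left out.

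Differences had a median SE of 0.26 on the log2 scale over all probe sets with 3 arrays per group, and an SE of 0.92 for EXPA8 and XTH18.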
